A study of Mus musculus with 6 samples.

Results

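Pitx1, Pitx3, Barx1, Barx2, Otx1 and Otx2 are 6 homeobox genes, chosen by family from the 21728 protein-coding genes of the GENCODE vM21 annotation on mouse chromosomes 1 to 19 and X. Their H3K4me1 peaks were collected from the peak lists of 3 whisker pads. A peak belonged to a gene when it overlapped the gene body or the 5 kb on either side of it, called at the gene here. It also belonged to the gene, as a distal peak, when it lay up to 300 kb away and the nearest protein-coding start site was that of the gene. A peak at the gene counted for every gene it overlapped in this way, whichever start site was nearest, so neighbouring genes could share a peak. By this rule the 6 genes had 13 of the 16788 peaks of replicate 1, 12 of the 12969 of replicate 2 and 5 of the 13998 of replicate 3.

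H3K4me1 is histone H3 with 1 methyl group on lysine 4. Nucleosomes at enhancers, whether in use or not, and beside promoters often carry it. CUT&Tag, which sequences the DNA cut by a transposase that an antibody tethers to the mark, was applied to wild-type whisker pads (the part of the snout that forms the whiskers) of B6/J2 mice at embryonic day 12, dissociated whole to single cells. The series has 6 samples: 3 for H3K4me1, and 3 for control IgG that were not analysed here. The study made the libraries to look for enhancer marks near a gene of whisker development, and no treatment or genotype was compared. The replicates are named after the pad number in the sample titles, and whether the 3 pads came from different embryos is not stated. The source name of 4 samples, H3K4me1 replicates 2 and 3 among them, reads adult kidney where the titles read whisker pad. The titles were followed.

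All 6 genes encode transcription factors that bind DNA through a homeodomain. The Pitx and Otx factors are relatives of the fly factor Bicoid and prefer the sequence TAATCC, whereas the Barx factors belong to the Bar class and bind TAAT-rich sites. Pitx1 is known for the identity of the hindlimb, for the pituitary and for the oral ectoderm and mandible. Pitx3 is known for the lens and for midbrain dopaminergic neurons. Barx1 is known for the mesenchyme of the molar-forming jaw and of the stomach, and Barx2 for epithelia, muscle and the regulation of cell adhesion genes. Otx1 and Otx2 are known for the formation of the forebrain, midbrain and sense organs. The whisker pad itself consists mainly of neural crest-derived mesenchyme beneath surface ectoderm.

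The sequences under the highest pileup of the regions described below are shown first, because the peak lists give positions only. Each is a window with 100 bases on either side of the middle of the highest pileup, read from the GRCm38 genome on the plus strand, in lower case. Capitals mark a match to TAATCC on either strand. The windows of Pitx1 and Barx1 come from replicate 1 and those of Barx2 and Otx1 from replicate 2, each from the replicate in which the region ranked highest.
Pitx1, distal region upstream (chr13:55981393-55981593, intron of the antisense noncoding gene Gm47071): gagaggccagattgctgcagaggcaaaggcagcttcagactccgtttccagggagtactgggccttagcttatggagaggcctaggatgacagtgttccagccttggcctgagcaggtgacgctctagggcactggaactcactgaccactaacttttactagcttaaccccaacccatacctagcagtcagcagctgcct
Barx1, nearer distal region downstream (chr13:48705658-48705858, intergenic): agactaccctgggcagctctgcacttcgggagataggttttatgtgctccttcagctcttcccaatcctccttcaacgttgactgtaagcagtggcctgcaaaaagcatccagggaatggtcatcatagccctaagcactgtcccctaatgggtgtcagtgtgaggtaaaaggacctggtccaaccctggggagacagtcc
Barx1, farther distal region downstream (chr13:48729715-48729915, intergenic): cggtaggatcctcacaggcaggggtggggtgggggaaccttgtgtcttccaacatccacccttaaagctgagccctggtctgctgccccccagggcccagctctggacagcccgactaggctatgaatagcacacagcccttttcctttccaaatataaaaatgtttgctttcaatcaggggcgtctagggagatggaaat
Barx1, region just past the gene end (chr13:48668998-48669198, intergenic): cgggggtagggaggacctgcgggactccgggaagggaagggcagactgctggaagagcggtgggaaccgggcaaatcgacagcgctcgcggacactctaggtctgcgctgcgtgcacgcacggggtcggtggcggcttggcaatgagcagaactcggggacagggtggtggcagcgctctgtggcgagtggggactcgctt
Barx2, start site region (chr9:31914905-31915105, upstream of the gene): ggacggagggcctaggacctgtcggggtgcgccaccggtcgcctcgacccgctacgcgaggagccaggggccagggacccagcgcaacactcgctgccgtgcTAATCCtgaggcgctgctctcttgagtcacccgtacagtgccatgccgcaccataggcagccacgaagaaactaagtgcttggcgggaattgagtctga
Otx1, start site region (chr11:22003717-22003917, upstream of the gene): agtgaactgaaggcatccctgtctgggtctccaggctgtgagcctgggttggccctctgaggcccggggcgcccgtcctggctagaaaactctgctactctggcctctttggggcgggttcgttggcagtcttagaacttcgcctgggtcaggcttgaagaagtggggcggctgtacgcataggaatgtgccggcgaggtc
The window just past the end of Barx1 was the richest in G and C, at 67.7%, and the nearer distal window of Barx1 the poorest of the 6 shown, at 52.7%. TAATCC was found once, in the Barx2 window, among the windows of all 16 regions of these genes. TAATTA, a core that many homeodomains bind, and CTTTGAT, the core of the TCF/LEF factors, were found in none. Both strands were searched, and TAATCC and TAATTA share their first 4 letters but cannot match at the same place. Over windows of the same length in all 19246 regions of the series, 5.29% held TAATCC, 3.17% TAATTA and 2.48% CTTTGAT. These matches describe the letters of the windows only.

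The peaks had been called with SEACR in each replicate separately, and each list holds the top 1% of signal blocks (continuous stretches of covered bases) by total signal. The total signal is the fragment pileup summed over the bases of a peak and was not scaled to depth, so it is given as a percentile, the share of the peaks of the same list with no more total signal. The weakest peak of a list had a total signal of 14265 to 24247 and the lists covered 2.17% to 2.40% of the chromosomes. A gene without a peak in a list may therefore still carry the mark below that level. In a whole pad, fewer cells with the mark and less of the mark per cell cannot be told apart.

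Across replicates 1, 2 and 3, a peak at the gene was found for 3, 4 and 1 of the 6 genes, on average for 2.67 ± 1.53 (SD, n = 3). At least 1 replicate had one for 4 of the 6, as was so for 28.7% of all protein-coding genes. Replicate by replicate, the share of all protein-coding genes with such a peak was 24.9%, 22.6% and 19.6% in the 3 replicates, against 50%, 66.7% and 16.7% of the 6. Among genes with a body between the shortest and the longest of the 6 (3510 to 67419 bp), the share was 20.7%, 18.9% and 14.2%. The 6 genes thus stood above the share of all genes in replicates 1 and 2 and below it in replicate 3, where 1 gene accounts for the whole count. Against the genes within this range of lengths they stood above the share in all 3 replicates. With distal peaks included, 4, 4 and 3 of the 6 genes had a peak, against 30.0%, 27.1% and 24.6% of all genes. Pitx1, Barx1 and Otx1 had a peak in all 3 replicates, as 19.8% of all genes did. Barx2 had peaks in replicates 1 and 2, which made 4 of 6 genes with a peak in at least 1 replicate, against 34.3% of all genes. Pitx3 and Otx2 had none in any replicate.

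**Figure D1:**
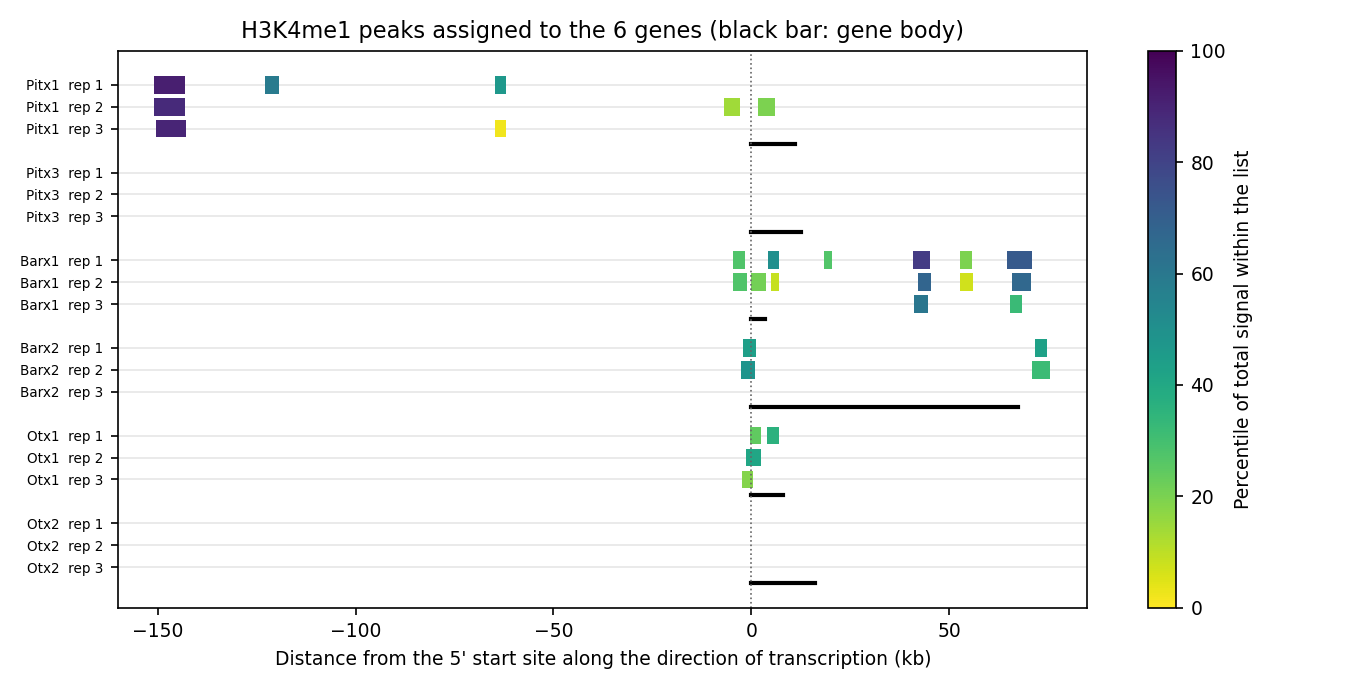
H3K4me1 peaks of the 6 genes in each replicate, placed by distance in kb from the 5′ start site along the direction of transcription, with the black bar showing the gene body and the colour the percentile of total signal. The strongest peaks of Pitx1 and Barx1 lay outside the genes, those of Barx2 and Otx1 at them, and the rows of Pitx3 and Otx2 are empty.

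Together the 6 genes held 0.0552% of the peak signal of replicate 1, 0.0558% of replicate 2 and 0.0285% of replicate 3. Their peaks numbered 10 ± 4.36 (SD, n = 3), of which 6, 8 and 1 were at the genes and 7, 4 and 4 were distal. Replicate 3 thus had the fewest peaks at the genes and as many distal ones as replicate 2. The median peak stood at percentile 43.9 in replicate 1, 29.6 in replicate 2 and 32.2 in replicate 3, with 5 of 13, 3 of 12 and 2 of 5 peaks above the median of their list. The median length of the peaks was 3065, 3712 and 2942 bp, close to that of the whole lists (2981, 3682 and 3352 bp). Most peaks of these genes were therefore of usual length and of middle or low rank, with Pitx1 and Barx1 holding the exceptions.

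Pitx1 (ENSMUSG00000021506.7, chr13:55825051-55836192, minus strand) had 3, 3 and 2 peaks. Its strongest region, chr13:55979047-55987253, was marked in all 3 replicates and lay at -151 to -143 kb, where negative values are upstream of the start site. The total signal there was 107843 in replicate 1, 131850 in replicate 2 and 99605 in replicate 3, at percentiles 91.8, 88.2 and 89.6 of the 3 lists (mean 89.8 ± 1.80, SD, n = 3). These peaks were 7995, 7900 and 7549 bp long and 7.56, 5.44 and 5.15 times as strong as the weakest peak of their list. The 3 replicates thus gave nearly the same rank, and their highest pileups lay within 144 bp of each other. The window printed above for Pitx1 is centred there, in replicate 1. By total signal per base the region ranked lower, at percentiles 76.7, 72.3 and 69.6, so that part of its rank came from its length.

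The assignment of this region to Pitx1 is narrow. The edge nearest to Pitx1 was 143 kb from its start site in each replicate, and the other start site next in distance, that of H2afy (a gene for a histone H2A variant), was 148, 148 and 149 kb from the region. Nearness does not show which gene, if any, the region acts on. Of all signal assigned to Pitx1, the region held 64.6% in replicate 1, 69.7% in replicate 2 and 83.5% in replicate 3.

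The other peaks of Pitx1 were weaker and each missing from at least 1 replicate. A region at -64.7 to -61.9 kb had a peak in replicate 1, at percentile 46.7, and in replicate 3, at percentile 2.28. Another at -123 to -119 kb had a peak in replicate 1 alone, at percentile 58.7. All of these lie in introns of Gm47071, which runs antisense across the locus. At the gene itself only replicate 2 had peaks. One at 1.64 to 6.09 kb covered the other annotated start site of Pitx1 and stood at percentile 19.9, and one at -6.79 to -2.90 kb stood at percentile 14.2. The 5′ start site of Pitx1 was covered by no peak in any replicate.

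Pitx3 (ENSMUSG00000025229.15, chr19:46135685-46148326, minus strand) had no peak. The start sites of its neighbours are close, Gbf1 at 4.18 kb and Elovl3 at 9.09 kb, each measured to the nearest annotated start site of Pitx3. A peak could therefore be assigned to Pitx3 only within 22.6 kb, the gene with its 5 kb flanks. The nearest peak of any kind was 90.8, 91.0 and 91.1 kb from the gene, at percentiles 94.8, 90.5 and 88.8, and belonged to Ldb1, a cofactor of LIM homeodomain proteins. The 3 lists thus placed the nearest peak at the same distance, outside the stretch assignable to Pitx3.

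Barx1 (ENSMUSG00000021381.4, chr13:48662998-48666507, plus strand) had the most peaks of the 6 genes, 6 in replicate 1, 6 in replicate 2 and 2 in replicate 3. Its strongest region, chr13:48703934-48708400, lay 40.9 to 45.4 kb downstream of the start site and was marked in all 3 replicates, at percentiles 82.8, 67.9 and 60.6 (mean 70.4 ± 11.3, SD, n = 3). The total signal was 66392, 65537 and 42444. By signal per base the same peaks ranked at percentiles 83.7, 82.8 and 61.3, so the rank did not rest on length. The highest pileup of the 3 replicates fell within 667 bp.

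The farthest region of Barx1 marked in all 3 replicates, chr13:48727706-48733975, lay at 64.7 to 71.0 kb. Its percentiles were 71.9, 66.5 and 32.2, with total signals of 45714, 63373 and 27049. It was broader than the nearer one in replicates 1 and 2, at 6270 and 4789 bp, and shorter in replicate 3, at 2942 bp. The highest pileup lay at 66.8 kb in replicates 1 and 3, at nearly the same base, and at 68.9 kb in replicate 2. Both regions are intergenic, and the next other start site was that of Ptpdc1, on the far side of Barx1, at 78.3 to 103 kb. The 2 regions were the only peaks of Barx1 in replicate 3, where they held 61.1% and 38.9% of its signal, against 33.8% and 23.3% in replicate 1 and 26.9% and 26.0% in replicate 2.

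Closer to the gene the peaks of Barx1 were weaker. The region upstream of the start site, at -4.71 to -1.04 kb, stood at percentiles 27.6 and 27.4 in replicates 1 and 2. The gene body was covered in full by a peak of replicate 2, at percentile 21.5, which began 0.014 kb before the start site, and not at all in the other replicates. A region at 4.25 to 7.12 kb, just past the end of the gene, ranked at percentiles 50.7 and 8.80 by total signal in replicates 1 and 2. By maximum signal the same 2 peaks stood at percentiles 84.9 and 64.9, with highest pileups of 68 and 57 fragments within 1 bp of each other. It is named here although its values were seen first, because its pileup was the highest of the locus in both replicates. The remaining regions, at 52.8 to 56.0 kb in replicates 1 and 2 and at 18.3 to 20.5 kb in replicate 1, had percentiles of 7.09 to 27.3.

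**Figure D2:**
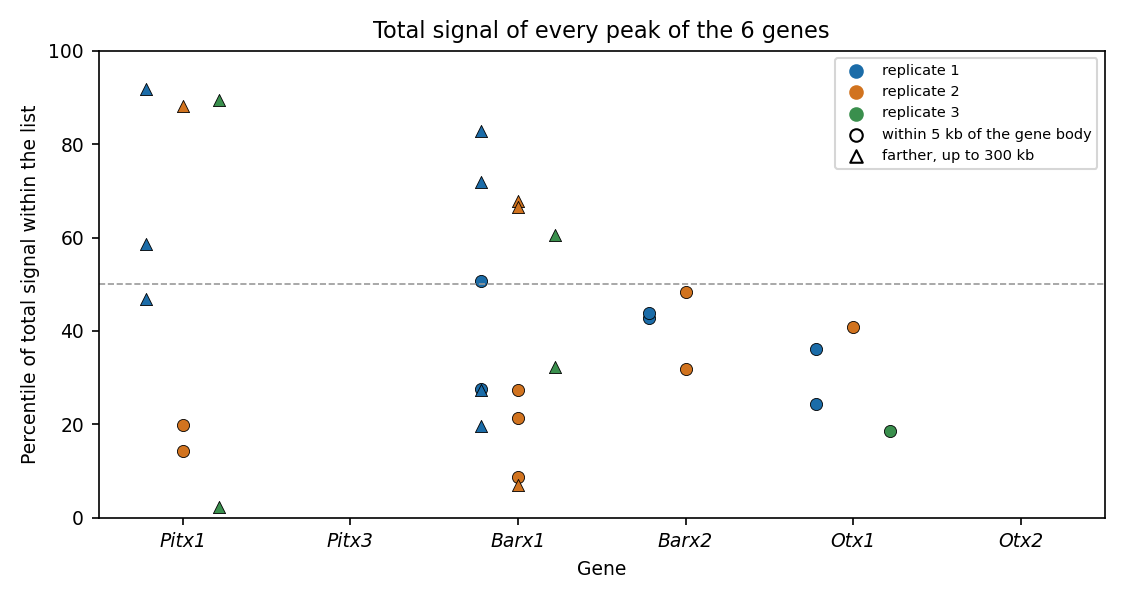
Percentile of total signal within its list (vertical axis, 0 to 100) for every peak of the 6 genes, with circles for peaks within 5 kb of the gene body and triangles for distal ones, and colours for the replicates. Every peak above percentile 50.7 was a distal peak of Pitx1 or Barx1, and Pitx3 and Otx2 had none.

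Barx2 (ENSMUSG00000032033.11, chr9:31846044-31913462, minus strand) had 2 peaks in replicate 1, 2 in replicate 2 and none in replicate 3. The region over its start site, chr9:31912368-31915964, stood at percentiles 43.9 and 48.4, with total signals of 24884 and 43697. The highest pileup lay upstream of the start site in both replicates, at -1.58 and -1.54 kb, and the window with the TAATCC match is centred on it. The other region, chr9:31838035-31842422, lay past the 3′ end of the gene, 71.0 to 75.4 kb from the start site, at percentiles 42.7 and 31.9. The 2 regions held nearly equal shares of the signal of Barx2, 50.5% and 49.5% in replicate 1 and 56.1% and 43.9% in replicate 2. In replicate 3 the nearest peak lay 137 kb from the gene, and no peak was found over the body of the gene between the 2 regions in any replicate.

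Otx1 (ENSMUSG00000005917.15, chr11:21994764-22002897, minus strand) had 2, 1 and 1 peaks, all at the gene. It was the only one of the 6 with a peak at the gene in all 3 replicates, as 15.5% of all genes had, and the only one whose 5′ start site was covered in all 3. The start site region, chr11:22000477-22005181, stood at percentiles 24.4, 40.8 and 18.5, with total signals of 18690, 38696 and 23178, which were 1.31, 1.60 and 1.20 times the weakest of each list. The peaks did not share a summit. The highest pileup lay at 1.22 kb within the gene in replicate 1, and upstream of the start site, at -0.920 and -1.55 kb, in replicates 2 and 3. Replicate 1 also had a peak over the 3′ part of the gene, at 3.95 to 7.01 kb and percentile 36.2, so that its peaks covered 67.4% of the gene body, against 29.0% and 4.98% in replicates 2 and 3.

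Otx2 (ENSMUSG00000021848.16, chr14:48657677-48673819, minus strand) had no peak, although a peak could be assigned to it over 302 kb. The nearest peaks lay 322, 321 and 299 kb from the gene and belonged to Tmem260, at percentiles 86.8, 83.4 and 0.936. These fell outside the rule, since they were nearer to the start site of Tmem260. Within the Otx pair, as within the Pitx pair, 1 gene thus had a peak in every replicate and the other in none.

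The 6 genes were ordered by the share of the bases assignable to each that peaks covered, which sets the values per length. Barx1 came first, with 17.4%, 17.0% and 5.24% in the 3 replicates, followed by Pitx1 with 7.22%, 8.39% and 5.37%. These neighbours in the order overlapped, and Pitx1 was higher in replicate 3. The stretch assignable to Pitx1 ended within its strongest region, so part of each peak there was left out of its values. Barx2 had 2.19%, 2.68% and 0.261%, and Otx1 had 1.64%, 0.998% and 0.752%. The replicate 3 value of Barx2 came wholly from a peak nearest to Tmem45b that crossed the far edge of the stretch assignable to Barx2. Its values in replicates 1 and 2 also include some bases outside the peaks assigned to Barx2. Barx2 and Otx1 overlapped, whereas every value of Pitx1 was above every value of Barx2. Pitx3 and Otx2 were at 0 in all 3 replicates, below each value of Otx1.

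By the share of all peak signal in the list, with no regard to length, the order was the same. Barx1 held 0.0239%, 0.0247% and 0.00935% (mean 0.0193 ± 0.00865, SD, n = 3) and Pitx1 0.0203%, 0.0192% and 0.0161% (mean 0.0185 ± 0.00220). Barx2 held 0.00599%, 0.00790% and 0, and Otx1 0.00494%, 0.00393% and 0.00312%. Among all protein-coding genes, 65.7% had no signal in any list, and the mean shares of the 4 genes stood at percentiles 92.7, 92.5, 81.8 and 80.3.

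**Figure D3:**
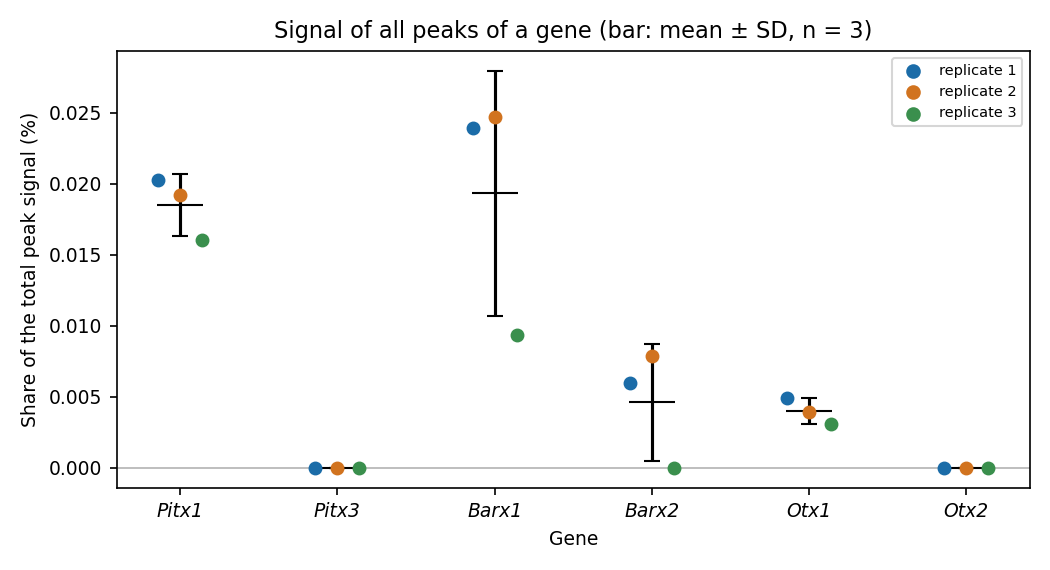
Signal of all peaks of a gene as a percent of the total peak signal of the list, for each replicate (points) with the mean and SD over the 3 (bars). The points of Pitx1 lie close together, the replicate 3 points of Barx1 and Barx2 lie below the other replicates, and Pitx3 and Otx2 lie at 0.

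The peaks of the 6 genes merged into 16 regions where they overlapped by at least 1 bp. A peak was present in all 3 replicates in 4 of these regions (25%), in 2 replicates in 6 and in 1 replicate in 6, whereas 46.3% of all 19246 regions were in all 3. The 4 were the far upstream region of Pitx1, both far downstream regions of Barx1 and the start site region of Otx1. Of the 7 distal regions 3 were in all 3 replicates, and of the 9 regions at the genes 1 was. Without replicate 3, 9 of the regions had a peak in both other replicates, so replicate 3 set this count.

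The regions of these genes were rich in G and C, at 48.8% to 58.8% with a median of 52.8%, against a median of 47.3% over all regions. In the series as a whole, replicate 3 had fewer peaks in such regions. Of all regions with a peak in replicates 1 and 2, 77.2% also had one in replicate 3, and from the fifth lowest in G and C to the fifth highest this share was 98.6%, 93.1%, 82.5%, 66.2% and 45.7%. Of the 9 regions of the 6 genes with a peak in replicates 1 and 2, 4 (44.4%) had one in replicate 3. For all regions within 1 percentage point of the same content, the share was 31.3% to 79.2%, with a mean of 56.5% over the 9. The Otx1 start site region, at 57.7%, had a peak in replicate 3 although only 31.3% of regions of like content did, and the 3′ region of Barx2, at 49.0%, had none although 79.2% of such regions did. The part of base composition in the missing peaks of replicate 3 was not tested.

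**Figure D4:**
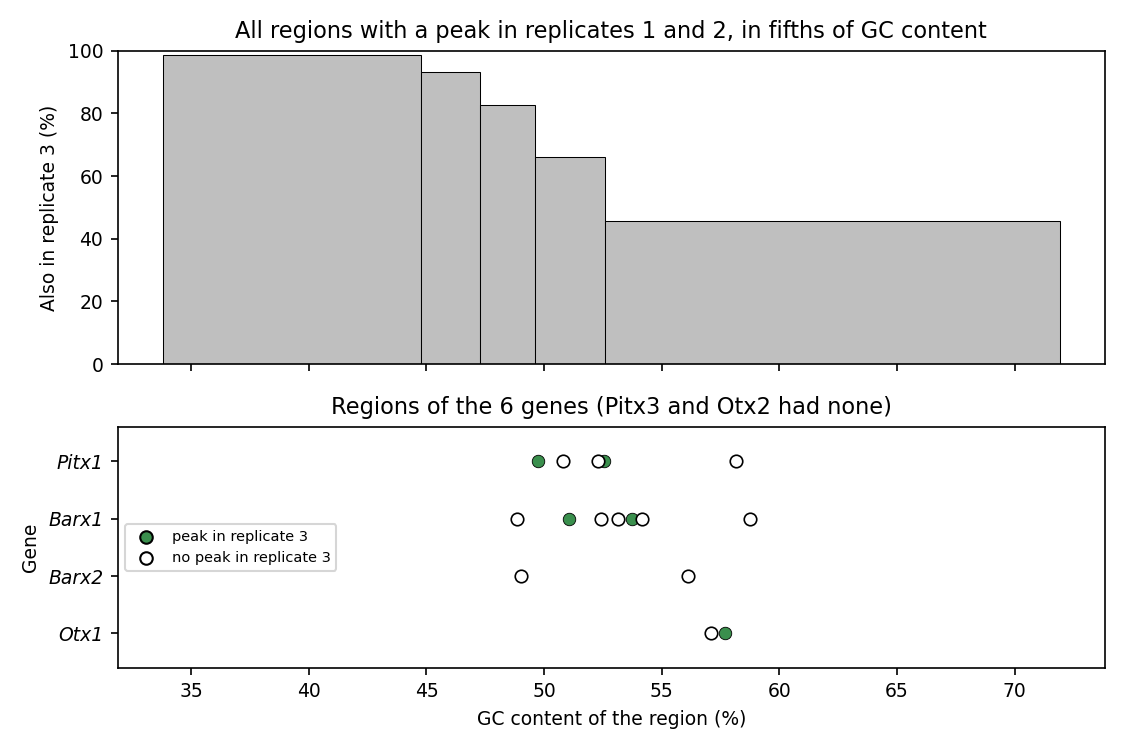
Upper panel, percent of all regions with a peak in replicates 1 and 2 that also had one in replicate 3, in 5 groups of nearly equal size ordered by the G and C content of the region. Lower panel, G and C content of each of the 16 regions of the 6 genes, filled where replicate 3 had a peak, with the share in the upper panel falling from 98.6% to 45.7% and the 16 regions lying between 48.8% and 58.8%.

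Other homeobox genes were set beside the 6, with the count of genes that had a peak at the gene. Of 18 facial homeobox genes, which pattern the mesenchyme of the face, 18, 18 and 16 had one in replicates 1, 2 and 3, and the median gene stood at percentile 96.5 of all genes by its mean share of the signal. The strongest peaks were those of Prrx2 and Alx4, each with a mean percentile of 99.7, and the weakest those of Dlx6 at 69.4 ± 21.8 and Dlx1 at 74.3 ± 17.6 (SD, n = 3). These means leave out replicates without a peak. Dlx2 had the same percentiles as Dlx1 in replicates 1 and 2 and no peak in replicate 3, and its mean was therefore higher, at 84.0. Of 18 anterior neural homeobox genes, which pattern the brain and eye, 8, 9 and 3 had a peak at the gene, and the median gene stood at percentile 77.2. By the share of genes with a peak at the gene, the 6 as a set were thus nearer to the neural list than to the facial one. Their median gene stood at percentile 81.1, a level that includes distal peaks and lies between unlike genes. Barx1 and Pitx1, at percentiles 92.7 and 92.5, were below the facial median but above the facial genes Dlx1 at 88.9 and Dlx6 at 92.1. Pitx3 and Otx2 had no signal. Within the neural list the highest mean percentiles were those of Lmx1b at 97.8 and En1 at 86.8, and the lowest of those with a peak Gbx2 at 28.6 and Six3 at 34.6, each of the last pair with peaks in 2 replicates. Barhl1, Crx, En2, Hesx1, Lhx5, Nkx2-1, Rax and Six6 had no peak in any replicate, at the gene or distal, as Pitx3 and Otx2 had none.

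Genes known to lie upstream or downstream of the 6 were counted in the same way. Of 14, 8, 8 and 5 had a peak at the gene and 6 had none at all. The highest were Sfrp1, with a mean percentile of 95.3 ± 1.04, and Sfrp2, with 92.4 ± 3.47 (SD, n = 3), both Wnt antagonists downstream of Barx1 in the stomach. The lowest with a peak were Nkx3-2, a factor of the stomach and the axial skeleton, at 14.2 over 2 replicates, and Fgf8, a signal of the oral ectoderm that acts upstream of Barx1, at 34.9 ± 26.6. None of the genes of dopaminergic neurons on the list except Nr4a2 had a peak, that is, neither Th nor Slc6a3. The pituitary genes Pomc and Tbx19 and the lens gene Foxe3 had none, whereas Tbx4, the hindlimb target of Pitx1, had peaks in all 3 replicates at percentiles 62.3, 64.5 and 58.5. These genes beyond the first 4 are named because of the tissues in which the 6 factors are known to act, after their values were seen.

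**Figure D5:**
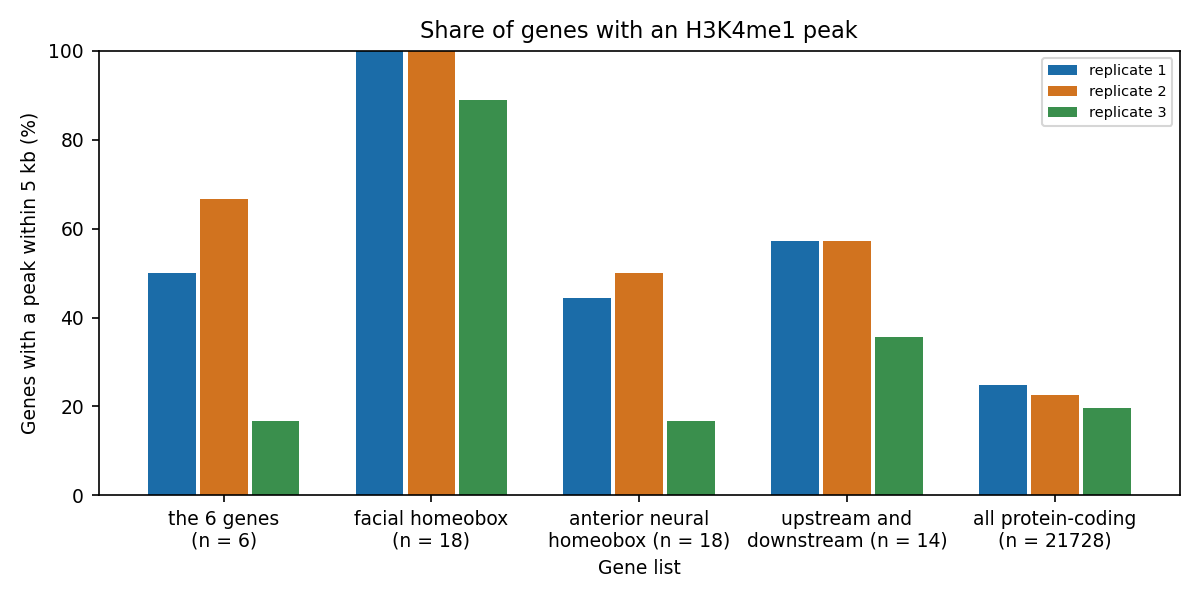
Percent of the genes of each list with a peak within 5 kb of the gene body, in each replicate, with the number of genes in the list below it and all protein-coding genes at the right. The facial homeobox genes reach 88.9% to 100%, the 6 genes 16.7% to 66.7%, the anterior neural genes 16.7% to 50% and all genes 19.6% to 24.9%. A single gene makes up 16.7% of the list of 6, so the widths of these ranges cannot be compared between lists of such different size.

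The homeobox gene of those 36 with the pattern most like a given one of the 6 was the one whose percentile of the strongest peak differed least over the 3 replicates, with a missing peak counted as percentile 0 although the mark may be there below the limit of the list. For Pitx1 it was Gsc, a factor of the jaw mesenchyme, with percentiles of 94.4, 90.9 and 91.2 and a largest difference of 2.67 points. The 2 genes were alike in the strongest peak only. Gsc had 13, 13 and 8 peaks, against 3, 3 and 2 for Pitx1. It had a peak at the gene in 3 replicates, against 1 for Pitx1. For Barx2 it was Lhx2, a factor of the forebrain, eye and hair follicle, with 9.78 points and no peak in replicate 3 for either. For Otx1 it was again Lhx2, with 18.5 points, a difference that comes from replicate 3, where Otx1 had a peak and Lhx2 had none. Likeness over 3 lists is a description of ranks.

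Markers of the tissues a pad could hold were counted too. Of 10 markers of facial mesenchyme, 10, 8 and 10 had a peak at the gene in replicates 1, 2 and 3, and of 10 markers of surface epithelium, 6, 6 and 4. Of 10 brain markers, 3, 4 and 1 had one, which was above the share of all genes in replicates 1 and 2 and below it in replicate 3. Neurod1 and Tbr1 were at none, whereas Rbfox3, a marker of mature neurons, had peaks in all 3 replicates at percentiles 90.6, 87.9 and 67.0. Of 10 adult kidney markers, 2, 2 and 1 had one, below the share of all genes, with Umod, Nphs1, Slc34a1 and Lrp2 at none, Slc12a1 with a peak in all 3 replicates and Aqp2 in replicates 1 and 2. Replicates 2 and 3, whose source name is adult kidney, thus had no more kidney markers with a peak than replicate 1. In replicate 1 alone the 6 genes had 3 members with a peak at the gene and 13 peaks. Of 8 stomach and gut markers, where Barx1 is also used, 2 (25%) had a peak at the gene in each replicate, Cdx1 and Gata6. This was near the share of all genes, 24.9%, 22.6% and 19.6%. The peak of Cdx1 stood at percentile 99.8 in each list. It was counted because it lay within 5 kb of the gene, and which start site was nearest to it is not given here.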

How the data were processed

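H3K4me1 CUT&Tag peak lists of 3 whisker pads were analysed. According to the submitters' processing notes and the study's methods, the authors used Bowtie2 2.3, SAMtools 0.1.19, bedtools and SEACR 1.3 with the mm10 (GRCm38) build. Peaks had been called per replicate with the stringent setting, taking the top 1% of blocks and no IgG control. The treatment of duplicate reads is not given in the sources used here. The signal columns deposited by the authors, total and maximum signal, held whole-number fragment pileup (100% of values) that was not scaled to depth. Read depth was not measured here; the lists held 12969 to 16788 peaks.

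Peaks were assigned to genes with GENCODE vM21 (54050 distinct protein-coding start sites) in Python 3.11.15 with pandas 2.3.3, numpy 2.4.6 and pyfaidx 0.9.0.4. Distances ran from the nearest edge of the peak. Signal was ranked within each list. Peaks of different replicates were merged at 1 bp of overlap. The scripts were tested on simulated data. With 1 group and no IgG list no test between groups was possible, so all values are descriptions with the mean and SD over 3 replicates. The members, lists and tests were chosen with earlier results of these data known. For each gene the text names the region in the most replicates with the highest mean percentile, the one at or nearest the start site and the farthest in all 3 replicates. For each list it names up to 4 genes, those with the highest and lowest mean percentile of the strongest peak. Alternatives were other flanks (1 and 20 kb), other distance limits (100 and 500 kb), smaller lists, other signal measures, joined peaks (less than 1 kb apart) and leaving out each replicate. The gene most like Barx1 is not reported here.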

Additional observations from a re-analysis of the deposited data

How the results depend on the processing

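Of 55 alternative values of 9 results, 47 stayed within the spread or within 1.5 times the count, and 8 moved. Leaving out 1 replicate could not move a mean, since the mean of those left always lies within the SD. The wide SD also let larger changes pass. With the strongest 10000 peaks of each list, the 6 genes had on average 6 peaks rather than 10. A peak at the gene was then found for 1.67 of them rather than 2.67. With the stronger 50% of each list, the mean number of the 6 genes with a peak at the gene fell from 2.67 to 0.333 and the regions in all 3 replicates from 4 to 2. Ranked by total signal divided by length, the median percentile of the peaks was 24.2 rather than 35.3. By total signal in replicate 1 alone, an alternative chosen after seeing the data, the median percentile was 43.9. Leaving out 1 replicate at a time gave 2 to 3.50 genes with a peak at the gene, 8.50 to 12.5 peaks, percentiles of 30.9 to 38.1 and 4 to 9 regions, the highest without replicate 3. By signal divided by length the strongest peak of Pitx1 stood at percentile 72.9 instead of 89.8 and that of Barx2 at 35.1 instead of 46.1, and by maximum signal that of Barx2 at 49.4. The cause of these shifts was not tested.

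No paired analysis was possible because only 1 group was analysed: the IgG libraries with matching pad numbers were left out. The lists end at their weakest peak, so low signal cannot be told from none. A list of the top 1% of blocks grows with the number of blocks, so a count of peaks is not a measure of enrichment.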
